A study of Mus musculus with 3 samples.

Results

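The genes described here encode secreted signaling proteins of the bone morphogenetic protein (BMP) and growth and differentiation factor (GDF) group, taken by name as Bmp2, Bmp4, Bmp5, Bmp6, Bmp7, Gdf5, Gdf6, Gdf10, Gdf11 and Gdf15. Of these 10 genes, 9 had a value, each from 1 probe set, among 19938 named genes on the array. No probe set was listed under Gdf15, which has no value here. Transcript levels were measured on 3 Affymetrix Mouse Gene 1.0 ST arrays, 1 for each of 3 cultured lines of FSP1-positive fibroblasts from the mouse forestomach. The wild-type line came from normal forestomach, the TGFBR2cKO line (here Tgfbr2 cKO) from a forestomach squamous cell carcinoma, and the TGFBR2/SMAD4 cKO line (here Tgfbr2/Smad4 cKO) from normal forestomach. A cKO is a conditional knockout, Tgfbr2 encodes the type II TGF-beta receptor, and Smad4 encodes the SMAD protein that TGF-beta and BMP signaling share. All lines were described as from a mix of C57BL6 and BALBc mice of either sex and were grown in the same medium with fetal bovine serum, penicillin and streptomycin. The sources used here do not give the Cre driver, the age of the mice or whether a line was 1 clone.

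BMP and GDF ligands are made as precursors that furin-type proteases cut, and the mature dimers bind pairs of type I and type II serine/threonine kinase receptors. Most BMP receptors phosphorylate SMAD1, SMAD5 and SMAD9, which enter the nucleus with SMAD4, whereas GDF11 acts through activin-type receptors on SMAD2 and SMAD3. GDF15 is an outlying member that signals through GFRAL and RET. Antagonists such as noggin and gremlin bind the ligands outside the cell. In the gut, BMP ligands from mesenchymal cells act on the neighboring epithelium, and the study's title concerns BMP7 signaling in stromal cells deficient in the TGF-beta receptor.

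With 1 array per line there was no replicate check of any difference, no test was possible and no p-value is given. A difference in cell makeup and a difference in RNA per cell cannot be told apart in these bulk cultures. The array medians ranged from 6.631 to 6.635 on the log2 scale. The array labelled Tgfbr2/Smad4 cKO also stood apart in its sex-linked genes, with Xist at 9.44 against 5.33 and 5.35 in the wild-type and Tgfbr2 cKO arrays, and the Y-linked Eif2s3y at 5.01 against 10.12 and 10.00. Each difference between that line and the others is therefore one of sex pattern as well as genotype, and for the comparison with Tgfbr2 cKO of tissue of origin too. Tgfbr2 cKO minus wild type is a difference of carcinoma and normal origin as well as genotype. In each comparison these cannot be told apart. The targeted genes differed little between arrays, with Tgfbr2 at 10.25, 10.25 and 10.29 and Smad4 at 11.06, 11.06 and 11.04 in wild type first, then Tgfbr2 cKO, then Tgfbr2/Smad4 cKO. These values cover whole transcripts, so they do not check the deletions, and the lines are named as labelled. The same order of arrays holds wherever 3 values are given below.

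Among the 9 ligand genes, Bmp4 was 7.83-fold higher and Gdf6 4.68-fold lower in the Tgfbr2/Smad4 cKO array than in wild type, and the other 7 differed by at most 0.044 on the log2 scale. In the Tgfbr2 cKO array none of the 9 differed from wild type by more than 0.054. Bmp7, the ligand in the study's title, had exactly the same deposited value in all 3 arrays. That value was below the median of all signals, where 70.0% of genes were equal in all 3 arrays. The equality is therefore no measure of whether Bmp7 differed between the lines. The 3 values of every member are plotted with the spread of olfactory receptor genes, which fibroblasts are not known to use, as a view of low signals.

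**Figure D1:**
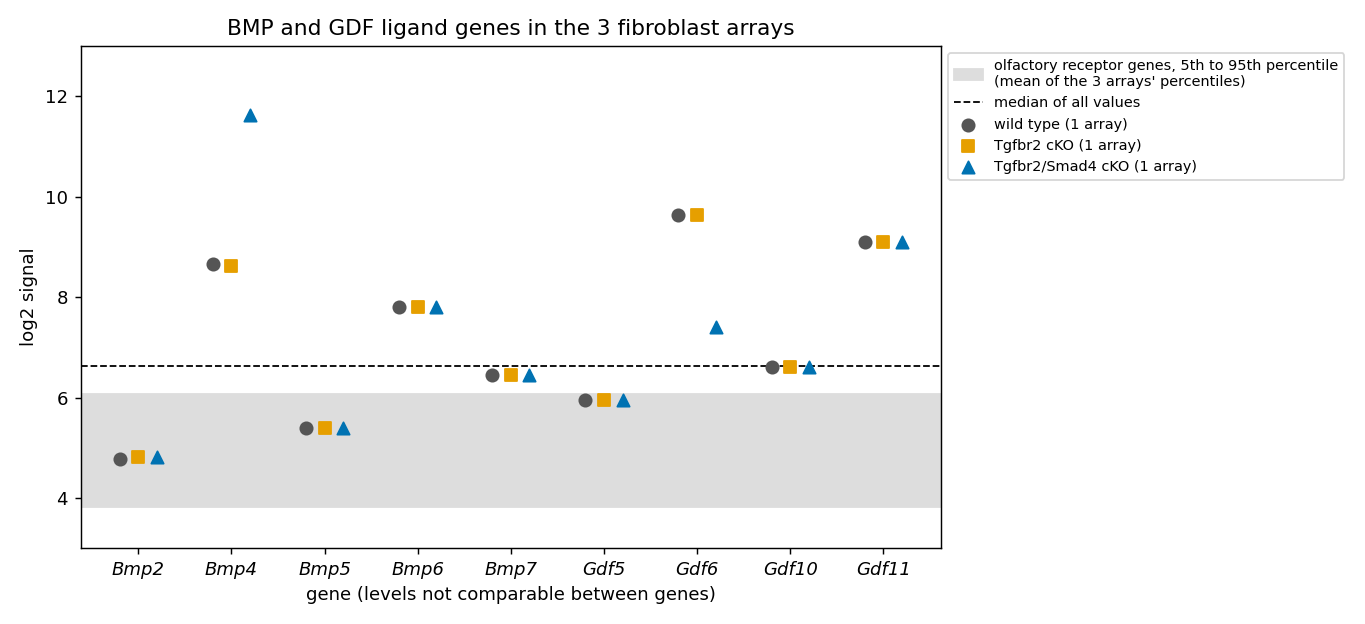
Log2 signal of the 9 ligand genes with a value (x axis) in the wild-type (circles), Tgfbr2 cKO (squares) and Tgfbr2/Smad4 cKO (triangles) arrays, 1 array each, so there are no error bars. Bmp4 is higher (11.63) and Gdf6 lower (7.41) in the Tgfbr2/Smad4 cKO array, while the 3 symbols of each other gene lie level. The grey band runs from the 5th to the 95th percentile of olfactory receptor genes and the dashed line is the median of all values, 6.63. Levels of different genes come from different probes and are not comparable.

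Bmp4 encodes a ligand for the type I receptors BMPR1A and BMPR1B that mesenchymal cells of the gut are known to make. It had log2 signals of 8.66 in wild type, 8.61 in Tgfbr2 cKO and 11.63 in Tgfbr2/Smad4 cKO, which are 406, 391 and 3176 on the linear scale. The first 2 arrays thus lay close together and the third far above them. The difference was 2.97 on the log2 scale for Tgfbr2/Smad4 cKO minus wild type and 3.02, or 8.12-fold, for Tgfbr2/Smad4 cKO minus Tgfbr2 cKO. These 2 comparisons share the Tgfbr2/Smad4 cKO array and are not independent. For Tgfbr2 cKO minus wild type the difference was -0.054. Among the 11808 genes whose highest value reached the median signal of 6.63 (the level filter), Bmp4 ranked 6th from the top in the comparison with wild type and 7th in the comparison with Tgfbr2 cKO. All 3 Bmp4 values were above that median, so its passing the filter did not depend on the array where it was high.

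The stretch before the Bmp4 start site is shown because Bmp4 differed most of the members in the line labelled as lacking SMAD4, a DNA-binding protein, although the arrays do not measure the promoter itself. Bmp6, whose value was the same in all 3 arrays, is shown beside it. RefSeq promoter sequences on GRCm38.p6 were matched for 6 of the 10 members, Bmp4, Bmp5, Bmp6, Gdf10, Gdf11 and Gdf15. Both stretches are the 250 bases upstream, 5′ to 3′ on the gene's strand, at chr14:46390670-46390919 (minus strand) for Bmp4 and chr13:38345466-38345715 (plus strand) for Bmp6. Capitals mark the SMAD motif CAGAC, or its reverse complement, and the GC-rich SMAD site GGCGCC. Both are known to be bound by SMAD proteins and both were searched on either strand. Shorter forms of these motifs were not searched.
Bmp4: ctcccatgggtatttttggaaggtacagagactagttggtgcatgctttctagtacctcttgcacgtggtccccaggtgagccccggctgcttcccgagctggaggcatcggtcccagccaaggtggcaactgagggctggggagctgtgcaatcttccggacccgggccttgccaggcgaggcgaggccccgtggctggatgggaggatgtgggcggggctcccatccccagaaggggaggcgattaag
Bmp6: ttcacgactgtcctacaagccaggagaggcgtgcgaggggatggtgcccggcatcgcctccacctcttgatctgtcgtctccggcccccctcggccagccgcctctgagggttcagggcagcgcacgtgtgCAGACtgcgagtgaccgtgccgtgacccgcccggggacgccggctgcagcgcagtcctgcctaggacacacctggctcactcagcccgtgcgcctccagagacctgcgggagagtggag
The Bmp4 stretch held neither motif, and the Bmp6 stretch held 1 CAGAC and no GGCGCC. Of the matched members not shown, Gdf11, nearly level at 9.09, 9.09 and 9.10, also held neither motif. Bmp5, Gdf10 and each Gdf15 stretch held 1 CAGAC and no GGCGCC. The share of G and C was 63.2% for Bmp4 and 68.8% for Bmp6. Of all 32851 promoter stretches of this length, 42.2% held CAGAC and 9.59% held GGCGCC on either strand. These counts describe the letters in the window and say nothing of binding.

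Gdf6 encodes a ligand of the GDF5 subgroup, known for roles in joint and tendon formation. It had log2 signals of 9.64, 9.62 and 7.41, which are 795, 789 and 170.0 on the linear scale. It was thus nearly level in the first 2 arrays and lower in the third. The difference was -2.23 for Tgfbr2/Smad4 cKO minus wild type, -2.22 for Tgfbr2/Smad4 cKO minus Tgfbr2 cKO, a 4.64-fold lower signal, and -0.011 for Tgfbr2 cKO minus wild type. Gdf6 ranked 22nd from the bottom of the 11808 genes in the comparison with wild type and 30th in that with Tgfbr2 cKO. Its value in the Tgfbr2/Smad4 cKO array was still above the level filter and at the 99.7th percentile of the 1007 olfactory receptor genes. Gdf5, the closest relative of Gdf6 among these ligands, had the same signal of 5.95 in all 3 arrays, within the range of olfactory receptor genes below their 95th percentile, so a lower level of Gdf5 could not have been seen.

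Of the other members, Gdf11 and Bmp6 also passed the level filter. Gdf11, which encodes a ligand close to myostatin, had log2 signals of 9.09, 9.09 and 9.10. Bmp6, whose product is known for the control of iron through hepcidin, had 7.81 in all 3 arrays. Both lay at or above the 99.7th percentile of olfactory receptor genes in each array, and they differed by at most 0.011 between any pair of lines.

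The remaining 5 members were below the median signal in every array. Bmp7 and Gdf10 had signals of 6.45 and 6.61 in each array, between the 97.1st and 97.7th percentile of olfactory receptor genes, and thus only a little above the 95th percentile of 6.07, 6.03 and 6.12. BMP7 is best known for kidney and eye development, and GDF10, also called BMP3B, for its likeness to BMP3. Bmp2, whose product is the closest relative of BMP4, had 4.77, 4.81 and 4.81, between the 62.0th and 64.0th percentile of olfactory receptor genes. Bmp5, a relative of Bmp6 and Bmp7, had 5.39 in all arrays, near the 83rd percentile. For Bmp2, Bmp5 and Gdf5 the signal could not be told from that of olfactory receptor genes, and a change at such a level may not show.

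Exact equality was common in these deposited values. In all 3 arrays 5 of the 9 members were equal (Bmp5, Bmp6, Bmp7, Gdf5 and Gdf10), which is 55.6% beside 47.9% of all 19938 genes. Equality was found in 32.7% of genes past the level filter and 70.0% of genes under it. For the Tgfbr2 cKO and wild-type pair alone, 6 of 9 members were equal, 66.7% beside 66.8% of all genes, so the members were as often equal as other genes. A small difference can be hidden by such ties, and equal values are therefore no measure of how alike the lines were.

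**Figure D2:**
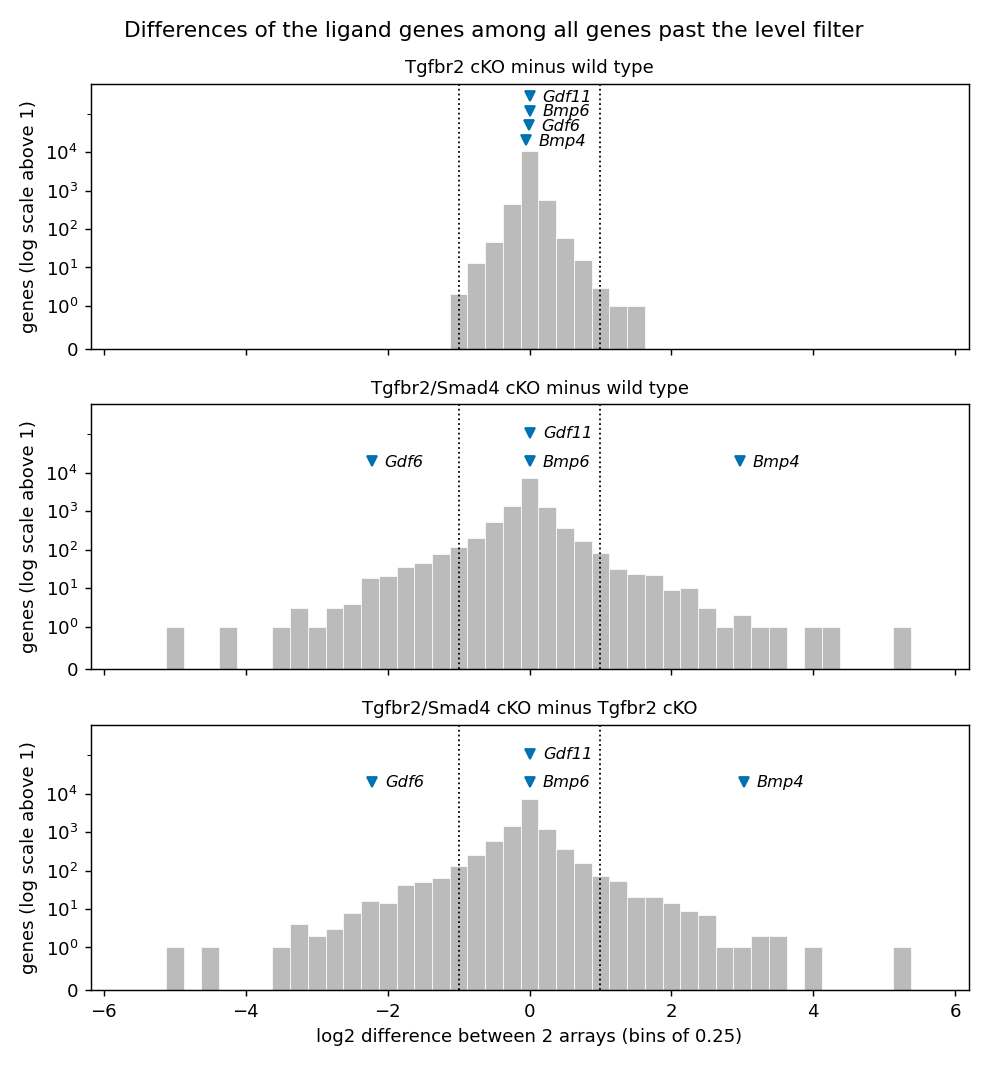
Number of genes (y axis, log scale above 1) by log2 difference (x axis) in each of the 3 comparisons, over the 11808 genes past the level filter, with the 4 ligand genes past that filter marked by triangles whose height has no meaning. Dotted lines mark 2-fold. Bmp4 and Gdf6 lie in opposite tails in both comparisons that hold the Tgfbr2/Smad4 cKO array, at 2.97 and -2.23 against wild type, and near 0 in the other comparison.

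For Tgfbr2/Smad4 cKO minus wild type, 1 of the 4 members past the filter was at least 2-fold higher, where 1.22% of the 11808 genes were, and 1 was at least 2-fold lower, where 2.18% were. For Tgfbr2/Smad4 cKO minus Tgfbr2 cKO the same count of 1 higher and 1 lower stood beside 1.32% and 2.25% of all genes. For Tgfbr2 cKO minus wild type, 0 of the 4 were at least 2-fold higher, where 0.0254% of genes were, and 0 were at least 2-fold lower, where 0.00847% were. Few genes of any kind passed 2-fold in that comparison. The median difference over the 4 members was 0.0057 in both comparisons with the Tgfbr2/Smad4 cKO array and -0.0055 in the other, beside a median of 0 over all 11808 genes in each. Against wild type in the Tgfbr2/Smad4 cKO array 2 of the 4 were above 0, 1 was below and 1 was equal, so the members had no common direction.

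Among the other ligands of the TGF-beta superfamily, Inhba and Tgfb2 were the ones past 2-fold. Of 23 listed, 22 had a value and 8 passed the filter, and for Tgfbr2/Smad4 cKO minus wild type 1 was at least 2-fold higher and 1 lower. Inhba, which encodes the subunit of activin A, had log2 signals of 12.20, 12.44 and 10.84, a difference of -1.36. Tgfb2, one of the TGF-beta genes, had 9.19, 9.34 and 10.27, a difference of 1.07 that was 0.93 against Tgfbr2 cKO and so under 2-fold there. Bmp8a, Gdf7 and Lefty1, the other listed genes of BMP, GDF or Lefty type past the filter, differed from wild type by at most 0.060.

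**Figure D3:**
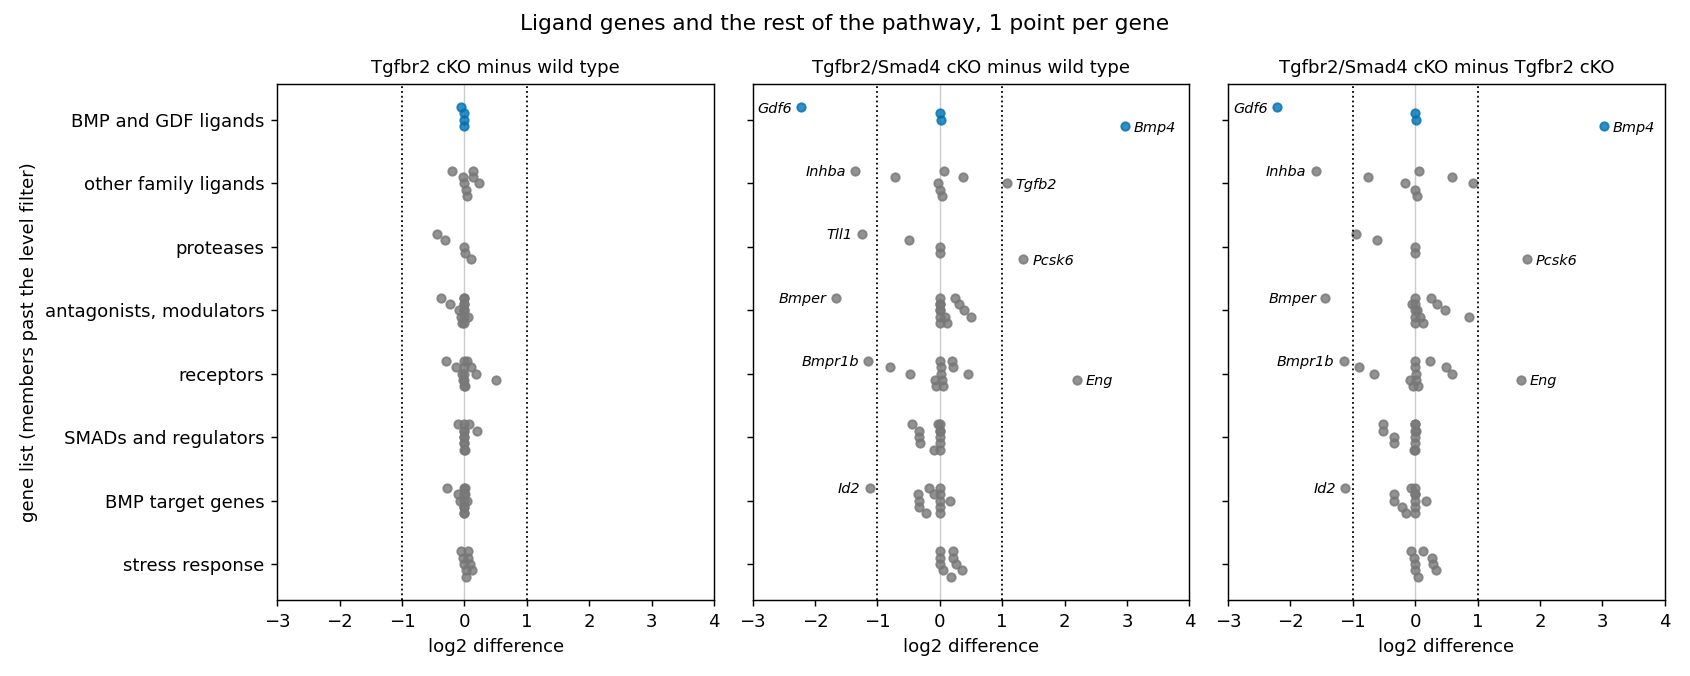
Log2 difference (x axis) of each gene past the level filter, 1 point per gene, by gene list (y axis; the ligands and 7 pathway lists, without the cell type markers) in the 3 comparisons; dotted lines mark 2-fold and genes beyond it are named. Among the genes plotted, the widest differences in both comparisons with the Tgfbr2/Smad4 cKO array are those of Bmp4 (2.97 and 3.02), and Gdf6 on the lower side (-2.23 and -2.22), and in the left panel no plotted gene is beyond 2-fold.

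Proteases that mature the ligands or free them from antagonists showed a list median of 0 against wild type in the Tgfbr2/Smad4 cKO array, with 1 of 5 genes past the filter at least 2-fold higher and 1 lower. Pcsk6, which encodes the furin-type convertase PACE4, had log2 signals of 9.06, 8.62 and 10.40, a difference of 1.34. Tll1, whose product belongs with the chordin-cleaving tolloid proteases, had 10.73, 10.42 and 9.47, a difference of -1.25 that was -0.945 against Tgfbr2 cKO. Furin differed by -0.50 from wild type and Bmp1, a tolloid protease gene despite its name, by 0.008.

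Of 14 extracellular antagonists and modulators past the filter, 0 were at least 2-fold higher and 1 lower than wild type in the Tgfbr2/Smad4 cKO array, and the median was 0. Bmper, whose product binds BMP4 and other BMPs outside the cell, had log2 signals of 10.79, 10.56 and 9.12, a difference of -1.67. Grem1, which encodes the BMP4 antagonist gremlin 1, differed by 0.25 and Nog, which encodes noggin, by 0. Fst, which encodes the activin and BMP binder follistatin, differed by 0.50, and by 0.87 against Tgfbr2 cKO. Thus the list held 1 gene past 2-fold, and it was on the lower side. Against wild type in the Tgfbr2/Smad4 cKO array, 6 of the 14 were above 0, 1 was below and 7 were equal. Of all genes past the filter, 31.1% were above and 32.2% below.

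Of 14 receptor and co-receptor genes past the filter, 1 was at least 2-fold higher and 1 lower in each comparison with the Tgfbr2/Smad4 cKO array. Bmpr1b, which encodes the type I receptor that GDF5 binds most tightly, had log2 signals of 9.45, 9.46 and 8.31, a difference of -1.14 from wild type. Gdf6 was also lower there and Bmp4 was higher, and a link between these genes was not tested. Eng, which encodes the co-receptor endoglin, had 9.46, 9.96 and 11.65, a difference of 2.20. The type I receptor gene Bmpr1a and the type II receptor gene Bmpr2 differed by -0.068 and 0.21. Gfral and Ret, the GDF15 receptor pair, were at 4.21 and 5.98 in all arrays, below the 95th percentile of olfactory receptor genes.

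Inside the cell, 0 of 12 genes for SMADs and their regulators passed 2-fold in any comparison. Against wild type, 6 of 12 were lower and 0 higher in the Tgfbr2/Smad4 cKO array, beside 32.2% lower and 31.1% higher of all genes past the filter. The list median was -0.011, and the largest differences were -0.45 for the co-repressor gene Skil and -0.34 for Smad9. Smad1 and Smad5 were equal in all arrays. Of 13 BMP target genes past the filter, 0 were at least 2-fold higher and 1 lower, Id2, with log2 signals of 10.92, 10.91 and 9.79 and a difference of -1.12. Of the other 12, 1 was above wild type (Msx1, at 0.17), 6 were below and 5 were equal, with a list median of -0.099. Id1, a direct target much used as a readout of BMP signaling, differed by 0 and Id3 by -0.17. In all, 7 of the 13 were below wild type, where 32.2% of all genes past the filter were, and 1 was above, where 31.1% were. Apart from Id2 the 7 differed by less than 2-fold. Smad6, Smad7 and Smad9 were in both lists and below wild type, so the counts of lower genes in the lists overlap.

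Among 9 stress response genes, listed because Gdf15 is known to follow the ATF4 and p53 programs, 0 passed 2-fold in any comparison. The largest differences between Tgfbr2/Smad4 cKO and wild type were 0.35 for Sesn2 and 0.26 for Chac1, with a list median of 0.17. In that comparison 6 of the 9 were above 0, 0 were below and 3 were equal. Of all genes past the filter, 31.1% were above and 32.2% below, with a median of 0. In the absence of a Gdf15 value these say nothing of Gdf15 itself.

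For Bmp4 and Gdf6, whose values ranged over more than 1 on the log2 scale, the 5 genes nearest in profile were found among 10576 single-probe-set genes past the filter, by the Euclidean distance between log2 values centered on their mean over the 3 arrays. Only 3 points make each profile, so many genes share its shape, and in both comparisons that hold the Tgfbr2/Smad4 cKO array 124 genes passed 2-fold upward and 221 downward. Nearest to Bmp4 was Ecrg4, at a distance of 0.14 and with a difference of 3.13 from wild type. Serpina3n, Kcne4, Plppr4 and Deptor followed at distances of 0.19 to 0.44. Plppr4 passed the filter only by its 8.55 in Tgfbr2/Smad4 cKO, with 6.05 in wild type and 5.94 in Tgfbr2 cKO. Nearest to Gdf6 was Kif1a, at 0.096, with a difference of -2.14 from wild type. Thy1, Rnf128, Tfrc and Kdm5d followed at 0.12 to 0.14. Kdm5d is Y-linked, with log2 signals of 7.54, 7.73 and 5.41, a difference of -2.13 from wild type. It was found by its likeness to Gdf6, so a difference of like size follows from the choice, and the other Y-linked genes measured, Eif2s3y and Uty, differed by -5.10 and -2.65.

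**Figure D4:**
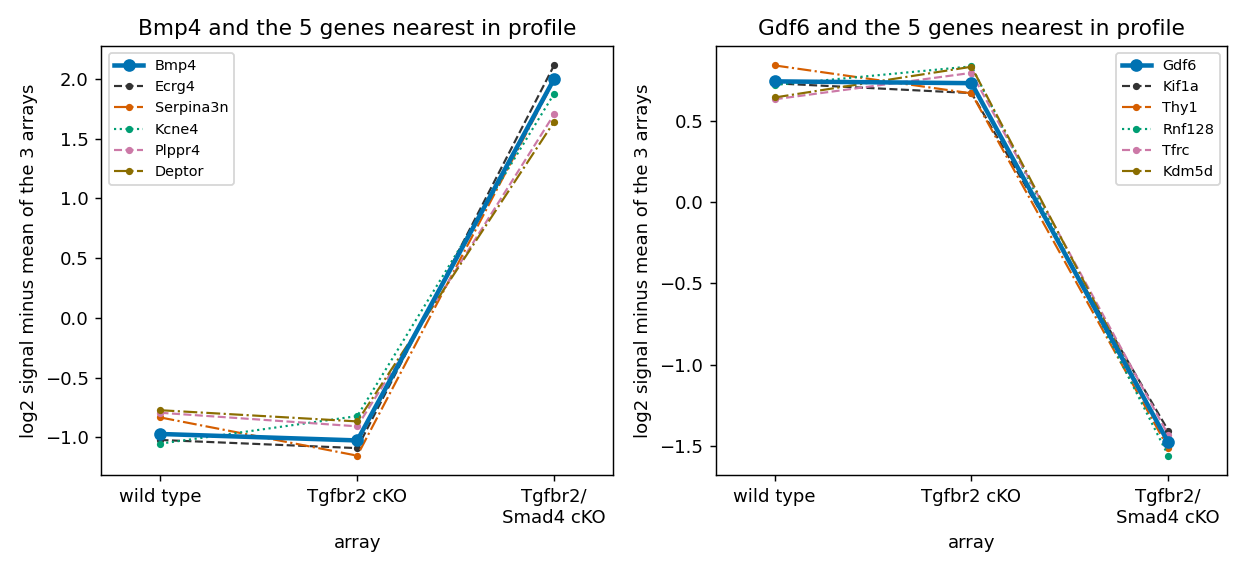
Log2 signal minus the mean of the 3 arrays (y axis) by array (x axis) for Bmp4 with its 5 nearest genes on the left and Gdf6 with its 5 nearest on the right. Each line is 1 gene over 3 arrays with no replicates. In all 12 genes the third array stands apart from the first 2, upward on the left and downward on the right, where the Y-linked Kdm5d (distance 0.14) is among the lines.

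Markers of cell types that the cultures could hold differed between the arrays as well, and not only in the Tgfbr2/Smad4 cKO array. All 10 fibroblast markers were above the 95th percentile of olfactory receptor genes in at least 1 array, and their summed linear signal was 93837, 96559 and 104734. Against wild type, 3 of the 10 were at least 2-fold higher in the third array (Pdgfra at 1.40, Lum at 1.21 and Fap at 1.09), 1 was at least 2-fold lower (Thy1 at -2.36), and 8 were above 0. S100a4, the FSP1 gene by which the cells were labelled, had log2 signals of 13.18, 13.16 and 12.71. The 8 smooth muscle markers summed to 74929, 77437 and 43263, sums in which bright genes weigh most. In the third array 4 of 8 were at least 2-fold lower than wild type, beside 2.18% of all genes past the filter. Of the 8, 7 were below 0 there and 1, Mylk at 0.79, was above. The 8 mesothelial markers summed to 2511, 1909 and 993, with 3 of 7 past the filter at least 2-fold lower in the third array. For Tgfbr2 cKO minus wild type 1 of the 7, Upk3b at -1.07, was at least 2-fold lower, where 0.00847% of all genes were. In that comparison 6 of the 7 were below 0 and Krt19 was above, at 0.42. Epithelial markers summed to 1323, 1416 and 878, with 1 of 5 past the filter, Krt19, at least 2-fold lower in the third array. Krt8, Krt18 and Krt19 were in both the mesothelial and epithelial lists. These sums and counts therefore overlap, and Krt19 is counted as lower in both. Of the 10 epithelial markers, 7 were above the 95th percentile of olfactory receptor genes in at least 1 array. Epcam, Cdh1 and Krt5 were below it in every array. Leukocyte markers summed to 926, 1296 and 704. Of the 8 with a value, 5 were above that percentile in at least 1 array, among them Lyz2 at 8.70, 9.52 and 7.75. Ptprc, Itgam and Adgre1 were below it in every array. Endothelial markers summed to 553 in each array, with 0 of 8 at least 2-fold different. Of these 8, 4 were above that percentile in at least 1 array. Pecam1, Cdh5, Tek and Emcn were below it in every array. The part of these shifts, and of the sex pattern, in the differences of Bmp4 and Gdf6 was not tested.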

How the data were processed

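The deposited table held log2 signals for 35556 probe sets on 3 arrays, with 0 further columns of per-sample values. That these are log2 values was inferred from their range of 2.82 to 15.6. How the authors made the deposited values (software, background correction, normalization) is not stated in the sources used. They were taken unchanged, since array medians lay within 0.0041. The platform annotation gave 1 symbol for 21789 probe sets, which were averaged per gene, and several for 1621, which were left out, while 12146 without an entry stay unnamed. Of the symbols, 21698 were updated by gene identifier with a RefSeq table of GRCm38.p6. The level filter kept genes with a highest value of at least 6.63, the median over all probe sets and arrays, and 2-fold was the size rule.

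Groups came from the sample titles. Members, lists and rules were chosen with earlier results of these data known. Named genes were all members, list genes at least 2-fold different (otherwise the 2 that differed most), the 5 nearest in profile, and check genes. Other list genes of known role, and the motifs, were chosen after values were seen. The counting step was tested on simulated data with known differences and without the ties of the real data. That checks the code only and not any difference reported here. Alternatives covered normalization (median centring, quantile, cyclic loess), an offset of 32, the brightest probe set per gene, level filters, genes with 1 probe set, genes with 3 different values, and size rules. Python 3.11.15 (numpy 2.4.6, pandas 2.3.3, matplotlib 3.10.9) and R 4.3.3 (limma 3.58.1) were used.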

Additional observations from a re-analysis of the deposited data

How the results depend on the processing

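No paired analysis was possible because each group had 1 array. The settings were median centring, quantile and cyclic loess normalization, an offset of 32, the brightest probe set, and size rules of 1.5-fold and 3-fold. Over these, all 189 member differences kept their side of the size rule. Bmp4 and Gdf6 kept their direction against wild type, at 2.87 to 3.01 and -2.23 to -2.03. Each member had 1 probe set, so the brightest probe set gave the main differences by construction. The size rules also leave each difference unchanged and move only the threshold. The 96 recomputed list counts were unchanged or within 1.5 times with no level filter and with the filter at the 75th percentile. Counts over all genes moved by more than 1.5 times in 18 cases and by less in 48. With a 1.5-fold rule, the genes higher and lower were 25 and 19 for Tgfbr2 cKO minus wild type, 396 and 601 for Tgfbr2/Smad4 cKO minus wild type, and 401 and 663 for Tgfbr2/Smad4 cKO minus Tgfbr2 cKO, and with a 3-fold rule they were 0 and 0, 55 and 96, and 61 and 100. With a level filter at the 75th percentile, genes lower numbered 0, 147 and 156 in the same order of comparisons. For Tgfbr2 cKO minus wild type the genes lower were 2 with quantile normalization, 2 with cyclic loess and 0 with the offset, against 1 as reported, and the share higher went from 75% to 66.7%, 60% and 100%. The fold rules and filters change counts by their construction, and the cause of the other shifts was not tested. Among all probe sets in place of olfactory receptor genes, the wild-type signal of Bmp7 lay at percentile 47.3 and that of Bmp2 at 19.2. The planned comparison of protein sequences was not run. Dim signals limit Bmp2, Bmp5 and Gdf5, and Bmp7 and Gdf10 were also below the median signal in every array. The use of 1 array per line limits every value.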
